A study of Mus musculus with 7 samples.

Results

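Igkv genes are the variable segments of the immunoglobulin kappa light chain. They were taken as every row of the deposited expression table whose mouse symbol began with Igkv and a digit, which gave 160 of 48795 genes. Of these, 100 were annotated as functional variable genes and 60 as pseudogenes, in 20 numbered families. Bulk RNA sequencing had been carried out on splenic memory B cells (MBCs, 3 libraries) and plasma cells (PCs, 4 libraries) of female wild-type C57BL/6 mice aged 8 to 12 wk, analyzed 10 d after i.v. injection of sheep red blood cells. Both groups shared the strain, genotype, sex and immunization, and no unimmunized mice were included. Spleen cells were passed over magnetic columns with anti-CD43 beads to enrich B cells, and the labels do not say which fraction was kept. MBCs were then sorted as B220+ CD138- IgD- CD38+ CD273+ cells and PCs as B220lo CD138+ IgD- cells. Neither gate selected on antigen binding or on the light chain.

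Each B cell normally assembles a single kappa chain gene by joining 1 Igkv segment to a joining segment upstream of the constant gene Igkc, and the daughters of that cell inherit the same join. The Igkv share of a bulk library therefore depends both on how many cells carry each join and on how much light chain RNA each cell holds. PCs are known for very high immunoglobulin transcription in the service of antibody secretion, whereas MBCs carry the same receptor chiefly on their surface.

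All 160 Igkv genes lie on chromosome 6 between 67555497 and 70704177 (GRCm38), from Igkv2-137 at the far end to Igkv3-1 next to the joining segments, with Igkc at chr6:70726435-70726966. The germline 3′ ends of 9 variable exons are shown because these genes led a library, recur in the comparisons below or, for Igkv5-43, bear on how reads of Igkv5-39 were assigned. Framework bases ending in the codon of the conserved cysteine are in lower case, and the 23 bases that each gene can contribute to the CDR3 loop are in capitals. The sequences are from GENCODE M21 transcripts.
Igkv5-39: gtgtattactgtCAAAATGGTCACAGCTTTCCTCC
Igkv9-120: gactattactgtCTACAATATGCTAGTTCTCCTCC
Igkv1-117: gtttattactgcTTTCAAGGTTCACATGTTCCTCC
Igkv1-110: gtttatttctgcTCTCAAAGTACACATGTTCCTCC
Igkv1-135: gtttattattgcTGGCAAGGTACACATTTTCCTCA
Igkv17-127: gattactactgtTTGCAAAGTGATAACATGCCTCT
Igkv7-33: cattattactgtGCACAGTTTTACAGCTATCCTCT
Igkv12-89: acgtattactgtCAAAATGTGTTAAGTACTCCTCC
Igkv5-43: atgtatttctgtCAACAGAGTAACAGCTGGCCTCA

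The files gave TPM, a measure of transcript abundance in which reads are divided by transcript length and scaled to a fixed total. TPM holds no read totals, so depth was estimated from the steps between low values. The estimate for a 1-kb transcript at 1 TPM came to 6.24, 6.98 and 11.6 reads in MBC 1 to 3 and 9.44 to 16.4 reads in PCs. Levels of single genes are given as scaled TPM, in which each library is divided by its median ratio to the libraries' average profile, so that the immunoglobulin load of PCs does not lower the rest. MBC 3 stood apart from MBC 1 and MBC 2 in genes outside the Igkv family. Cd38, which the gate selected, was at 130.3 and 186 scaled TPM in MBC 1 and MBC 2 and at 6.77 in MBC 3. Pdcd1lg2, which encodes CD273 of the same gate, was at 43.3, 24.4 and 2.59 in MBC 1 to 3. In PCs it was at 0 to 2.84, a range that holds the MBC 3 value. The summed germinal center B cell list was 232, 230.4 and 592 in MBC 1 to 3. Ccr6, a chemokine receptor of MBCs, was at 108, 136 and 2.26. PC markers were 6 of 6 higher in PCs, with a summed level of 128 to 217 in MBCs and 11874 to 21415 in PCs. Sdc1, which encodes CD138, was at 0, 0 and 0.0585 in MBCs, Tnfrsf17 was at 0 in all 3, and Jchain was between 62.2 and 137. The MBC and B cell list summed to 1464, 1646 and 560.2 in MBCs and 121 to 149.8 in PCs, with 4 of 7 genes lower in PCs, and 1 of 5 genes of the germinal center list was lower. Values below are given with and without MBC 3 where it bears on them.

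Igkv transcripts filled a far larger part of PC libraries than of MBC libraries. They took 0.707, 0.688 and 0.362% of all TPM in MBC 1 to 3, and 13.0, 13.7, 13.5 and 13.4% in PC 1 to 4. The PC libraries were close together and the groups did not overlap. MBCs averaged 0.586 ± 0.194% (SD, n = 3) and PCs 13.4 ± 0.287% (SD, n = 4), a 22.9-fold ratio and a difference of 12.8 percentage points, which was 12.7 without MBC 3. In scaled TPM the sums were 3427 ± 1487 and 190591 ± 18589 (SD, n = 3 and 4), a 55.6-fold ratio. No test was run on these sums, because they are scores over the family. In bulk RNA, fewer cells of a type and less RNA per cell cannot be told apart. The constant gene moved with the variable genes. Per unit of length, Igkv TPM divided by Igkc TPM was 0.673, 0.966 and 0.657 in MBCs and 0.668, 0.812, 0.939 and 0.895 in PCs, and these ranges overlapped (0.766 ± 0.174 against 0.828 ± 0.119, SD, n = 3 and 4).

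Most of the Igkv genes that could be tested rose in PCs. Of the 160 genes, 101 reached 1 TPM in at least 3 libraries and were tested, and 86 of these were called higher in PCs by limma on log2(scaled TPM + 1) at an adjusted p under 0.05 and a log2 fold change of at least 1. Over all 11573 genes tested, 6.41% were called higher. Without MBC 3, 84 of the 101 were called. Of the 59 members not tested, 41 were at 0 in every library and the others were under the filter. By limma 0 of the 101 were called lower, where 2.14% of all genes were, and none had a negative log2 fold change at an unadjusted p under 0.05, whereas 94 had a positive one. The share of all genes at that unadjusted limit was not computed. In 87 of the 101, every PC library lay above every MBC library, against 13.0% of all genes. The median log2 fold change was 6.18, beside 0.14 over all genes tested, and ranged from 0.44 to 11.37. Because 8 of the 101 genes passed the filter with no MBC library at 1 TPM, the 33 genes at 1 TPM or more in every MBC library were also counted, and 33 of 33 were called, with log2 fold changes of 4.24 to 8.08 and a median of 5.90. Igkc itself had a log2 fold change of 5.78 ± 0.57 (SE) and a limma adjusted p of 2.5e-04. The labels do not say whether the libraries came from separate mice, so these p-values measure only the spread between the libraries. Within the more frequent of the title prefixes (MBC 1 and MBC 2 against PC 1 to 3), 76 of the 101 were called higher, and the other prefix held 1 library of each group.

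**Figure D1:**
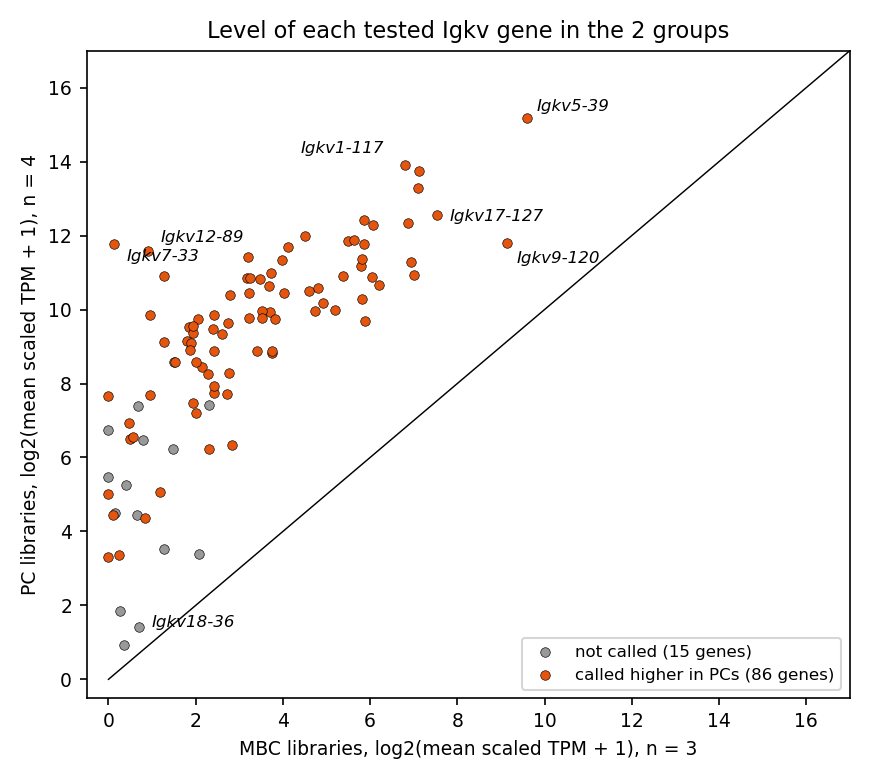
Mean scaled TPM of the 101 tested Igkv genes on log2(value + 1) axes, MBC libraries (n = 3) on the horizontal axis and PC libraries (n = 4) on the vertical axis, with the line of equal level. The 86 genes called higher in PCs are in orange and the 15 others in grey, and no gene lies below the line.

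Markers of other cell types varied across the libraries, and the part of such cells in the Igkv values was not tested. Of the T cell list only Cd3e could be tested, and it was higher in PCs (limma adjusted p = 0.00807). The summed level of that list was at most 0.848 scaled TPM in any MBC library and 12.1 to 19.9 in PC libraries. Cd3e gave most of the PC mean, at 10.6, beside 0.830 for Cd3d, 1.34 for Cd3g, 2.32 for Cd4 and 0.125 for Cd8a. In PC 1, Cd3e was at 11.8 and Cd4 at 0.362, while Cd3d, Cd3g and Cd8a were at 0. Whether the PC libraries held T cells was not tested. The erythroid list summed to 2897 in MBC 2, mostly from globin genes, and to at most 72.6 in any other library. The myeloid list was between 5.93 and 40.0 in every library, and neither of these lists had a gene called by limma, although 1 myeloid gene, Cd68, had an unadjusted p under 0.05.

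The 5 genes with the largest log2 fold changes were at or near 0 in at least 1 MBC library, and 4 of them did not exceed 2.84 scaled TPM in any. Igkv7-33, the only member of its family, was listed at 0, 0 and 0.278 scaled TPM in MBC 1 to 3 and at 4564, 3823, 818 and 4718 in PC 1 to 4. All 3 MBC values were under the level of 3 reads, and against that floor the PC mean was at least 2287-fold higher (fitted log2 fold change 11.37 ± 0.59, SE; limma adjusted p = 8.0e-06). Igkv7-33 passed the filter through PC libraries alone, so its SE and p-value rest on MBC values at or near 0. Igkv12-89 was listed at 0, 0 and 2.60 in MBCs and at 8683, 1519.7, 1258 and 883 in PCs, with a fitted log2 fold change of 10.32 ± 0.78 (SE) and a limma adjusted p of 5.8e-05. PC 1 alone held most of the Igkv12-89 signal of its group. Igkv14-126 was the steadiest of these genes, at 2.28, 0 and 2.00 in MBCs and 2262, 1623, 1963 and 1841 in PCs (log2 fold change 9.80 ± 0.44, SE; limma adjusted p = 3.1e-06). Igkv8-30 and Igkv1-99 followed with fitted log2 fold changes of 9.03 and 9.02. Igkv8-30 was at 2.68, 0 and 22.1 in MBCs, so that MBC 3 held it well above the floor. In all, 12 tested members were at or under 3 reads in every MBC library, and with these placed at their bound the median log2 fold change was again 6.18. Most of these members already lay below that median, so placing them at their bound could hardly move it.

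At the other end, 15 tested members were not called. The 5 with the lowest log2 fold changes were Igkv4-75 at 0.44, Igkv18-36 at 0.71, Igkv12-40 at 1.07, Igkv4-60 at 1.08 and Igkv5-37 at 2.22, with limma adjusted p from 0.379 to 0.658. They were scarce in both groups. Igkv18-36 was at 0, 0 and 1.91 scaled TPM in MBCs and 0, 3.61, 1.89 and 1.24 in PCs, and Igkv4-75 did not exceed 1.93 in any library. Igkv5-37 was at 0, 0 and 1.71 in MBCs and was split in PCs, with 40.0 and 42.6 in PC 2 and PC 4 and 0 in PC 1 and PC 3. Of the 8 pseudogenes tested, 2 were called higher, beside 6.41% of all genes tested. The called ones were Igkv4-77 with a log2 fold change of 4.21 (limma adjusted p = 0.00395) and Igkv3-11 with 3.05 (limma adjusted p = 0.0187). Igkv3-11 was at 0 in every MBC library and passed the filter through PC libraries alone. Its p-value therefore rests on an MBC group with no spread. Among the 93 functional genes tested, 84 were called and the median was 6.44. Pseudogenes together held at most 0.621% of the Igkv total of any library.

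The number of Igkv genes in use varied widely within the MBC group. Above 0 TPM there were 64, 45 and 102 Igkv genes in MBC 1 to 3, and 97, 112, 103 and 109 in PC 1 to 4. The estimated Igkv reads behind these counts were 6500, 7100 and 6400 in the MBC libraries and 193500 to 362900 in the PC libraries. MBC 3 thus listed more Igkv genes than PC 1 from far fewer Igkv reads. MBC 2 listed the fewest, although its estimated Igkv reads were close to those of MBC 3. Over all genes, 12983, 11527 and 18061 were above 0 in MBC 1 to 3 and 14463 to 16768 in PCs. MBC 2 was thus the lowest library there too. The part of this library-wide detection in the Igkv counts and in the usage scores below was not tested. A level of 3 reads corresponded to 0.044 to 0.051% of the Igkv total in MBCs and to at most 0.0017% in PCs, so that values of rarer genes in MBC libraries correspond to fewer than 3 estimated reads. Genes above 0 in all 7 libraries numbered 36, and they held 75.0 to 98.1% of the Igkv total. A further 15 genes were listed in PC libraries alone and 2 in MBC libraries alone, Igkv3-12-1 and Igkv2-93-1, the latter at 17.98 TPM in MBC 1. Of the 41 genes at 0 in every library, 40 were pseudogenes and the other was Igkv1-35. Floors and intervals here reflect counting error alone, because without molecular identifiers amplified reads need not be separate molecules.

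Usage, the percentage of a library's Igkv TPM held by each gene, showed marked dominance in 3 of the 7 libraries. Igkv5-39 held 57.6% of MBC 1 (95% Wilson interval 56.4 to 58.8%) and 55.2% of PC 1 (55.0 to 55.4%). These intervals apply the TPM share to the estimated Igkv reads of the library. They leave out transcript length, and the shares of estimated reads given below for MBC 1, PC 1 and MBC 2 fall outside them. Igkv9-120 held 35.1% of MBC 2 (34.0 to 36.2%). In the other libraries the leading gene held far less. Igkv5-39 led PC 3 with 14.9% (14.8 to 15.1%), Igkv1-117 led PC 2 with 10.4% (10.3 to 10.5%) and PC 4 with 10.1% (10.0 to 10.2%), and Igkv1-110 led MBC 3 with 7.12% (6.52 to 7.78%). The mean share of the leader was 33.3 ± 25.3% in MBCs and 22.7 ± 21.8% in PCs (SD, n = 3 and 4), and the ranges overlapped. The difference of -10.6 percentage points rested on single libraries. It was -23.7 without MBC 3, -21.5 without PC 1, -6.51 without PC 2, -6.42 without PC 4 and 1.57, the opposite sign, without MBC 1.

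**Figure D2:**
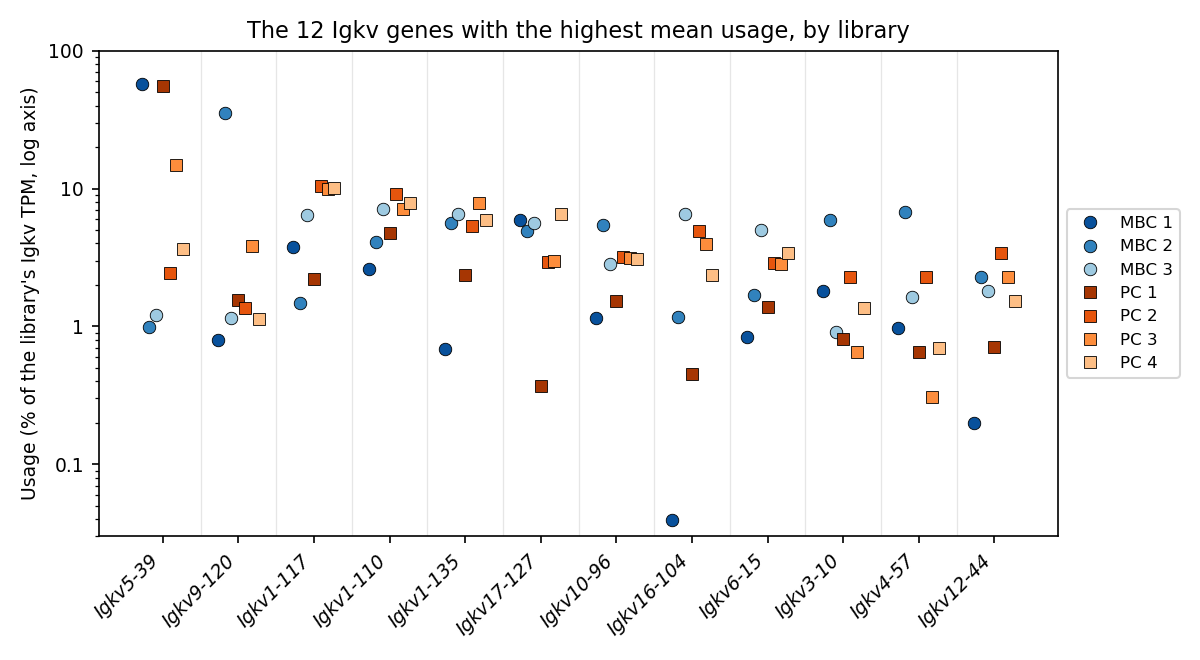
Usage of the 12 Igkv genes with the highest mean usage, as a percentage of each library's Igkv TPM on a log axis, with 1 point per library (circles for MBC 1 to 3, squares for PC 1 to 4). Igkv5-39 stands at 57.6% and 55.2% in MBC 1 and PC 1 and Igkv9-120 at 35.1% in MBC 2, while the other genes stay at 10.4% or below.

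Evenness separated the same libraries. The effective number of genes, the exponential of the Shannon entropy of usage, is the number of equally used genes that would give the same evenness. It was 8.37, 14.1 and 47.4 in MBC 1 to 3 and 9.79, 43.2, 34.8 and 44.0 in PC 1 to 4. Each group contained a library under 10 and a library over 40, and the means of 23.3 ± 21.1 and 32.9 ± 16.0 (SD, n = 3 and 4) differed by less than the spread within groups. The difference of 9.68 genes ranged from 2.23 without MBC 1 to 21.7 without MBC 3, and was 5.07 without MBC 2, 17.4 without PC 1, 6.26 without PC 2 and 6.01 without PC 4. Within the more frequent title prefix it was 18.1. The inverse Simpson index, which weights common genes more, was 2.93, 6.77 and 30.4 in MBCs and 3.19, 26.8, 18.6 and 27.4 in PCs. A single gene sufficed for 50% of the Igkv total in MBC 1 and in PC 1, 4 genes in MBC 2 and 7 to 11 genes in the other libraries. For 90% of the total, 20, 17 and 50 genes were needed in MBC 1 to 3 and 23, 44, 42 and 45 in PC 1 to 4. When the leading gene of each library was set aside, the effective number of the remainder was 30.1, 21.6 and 48.3 in MBCs and 35.1, 46.1, 39.6 and 46.7 in PCs. MBC 2 was the least even library once leaders were set aside, and PC 1 came closer to the other PC libraries.

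**Figure D3:**
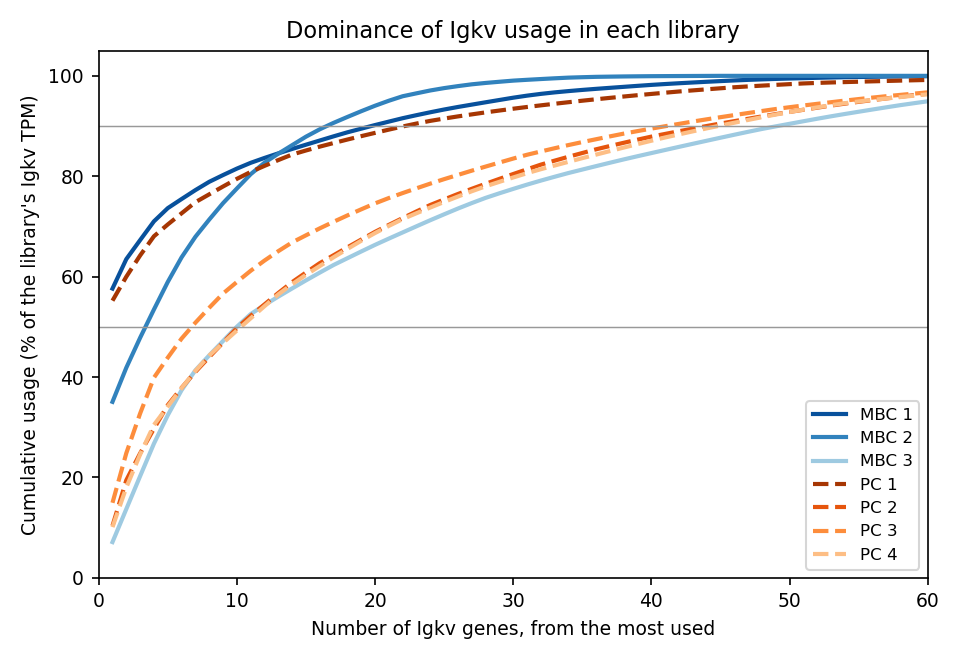
Cumulative usage (percentage of a library's Igkv TPM) against the number of Igkv genes counted from the most used, with solid blue lines for MBC 1 to 3 and dashed orange lines for PC 1 to 4 and grey lines at 50% and 90%. MBC 1 and PC 1 start at 57.6% and 55.2%, MBC 2 reaches 90% with 17 genes, and MBC 3 starts lowest, at 7.12%, and needs 50.

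Igkv5-39 (chr6:69900424-69900977, minus strand) was the most used gene by mean usage, at 57.6, 1.00 and 1.21% in MBC 1 to 3 and 55.2, 2.45, 14.9 and 3.65% in PC 1 to 4. It was high in 1 MBC and 1 PC library, intermediate in PC 3 and low in the rest. In scaled TPM it was at 2235, 46.3 and 21.4 in MBCs and 113329.9, 4997, 24764 and 6836 in PCs. The level was higher in every PC library, with a log2 fold change of 7.04 ± 1.55 (SE) and a limma adjusted p of 0.0215. That call was lost in 5 of 14 alternative settings, among them without MBC 2, PC 1 or PC 3 (limma adjusted p of 0.0895, 0.0599 and 0.0647), and adjusted p ranged from 2.0e-04 to 0.115 over the 14.

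Igkv9-120 (chr6:68049983-68050456, plus strand) held 0.802, 35.1 and 1.15% in MBCs and 1.56, 1.36, 3.80 and 1.13% in PCs. Its scaled TPM was 31.1, 1625 and 20.3 in MBCs and 3194, 2776, 6300.3 and 2119 in PCs. MBC 2 came near the lowest PC library, while MBC 1 and MBC 3 lay far below. The log2 fold change was 4.99 ± 1.27 (SE; limma adjusted p = 0.0401), and this was the least stable call among the named genes. It was lost in 9 of 14 alternative settings, with adjusted p from 1.2e-04 to 0.160, including without MBC 1, without MBC 3 and without any 1 of the PC libraries.

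The Igkv1 family was the broadest contributor outside the dominated libraries. Igkv1-117 held 3.79, 1.47 and 6.48% in MBCs and 2.21, 10.4, 9.89 and 10.1% in PCs. Igkv1-110 held 2.63, 4.10 and 7.12% in MBCs and 4.77, 9.08, 7.13 and 7.90% in PCs. Igkv1-135 held 0.687, 5.64 and 6.58% in MBCs and 2.35, 5.35, 7.90 and 5.88% in PCs. In each of these genes PC 1 was the lowest PC library, and at least 1 MBC library fell within the PC range. Their levels rose with log2 fold changes of 6.96 ± 0.57, 6.62 ± 0.38 and 6.62 ± 0.70 (SE; limma adjusted p = 9.0e-05, 1.4e-05 and 3.4e-04). The family as a whole, with 13 genes, held 7.27, 11.3 and 21.7% in MBCs and 9.97, 26.2, 26.8 and 25.4% in PCs. These shares depend on the dominant genes in the total. Without Igkv5-39, Igkv5-43 and Igkv9-120, the family held 19.2, 17.7 and 22.6% in MBCs and 25.3, 27.7, 33.3 and 26.9% in PCs, ranges that did not overlap. Igkv1-110 then held 6.94, 6.42 and 7.39% in MBCs and 12.1, 9.59, 8.88 and 8.35% in PCs, with PC 1 the highest rather than the lowest PC library. The removal of these dominant genes was chosen after the data were seen. Other families were not computed in this way, so whether the separation is particular to Igkv1 is not known.

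Igkv17-127 held 5.87, 4.91 and 5.65% of usage in MBCs and 0.369, 2.94, 2.97 and 6.58% in PCs. It was the second gene of MBC 1 but was scarce in PC 1. The likeness of its MBC shares depended on the dominant genes in the total. With the dominant genes removed as above, Igkv17-127 held 15.5, 7.68 and 5.87% in MBCs and 0.936, 3.11, 3.70 and 6.96% in PCs. Its level still rose in PCs, with a log2 fold change of 4.55 ± 0.82 (SE) and a limma adjusted p of 0.00791, a call lost without the filter on low values (limma adjusted p = 0.0565). Igkv16-104 had the widest ratio of highest to lowest MBC usage among the 12 most used genes, at 0.0393, 1.18 and 6.55%, and was at 0.455, 4.90, 3.99 and 2.36% in PCs. The first of these values lies under the 0.045% that 3 reads would give. Igkv4-57 and Igkv3-10 came next after Igkv9-120 in MBC 2, at 6.80 and 5.96%, and neither exceeded 2.28% in a PC library. The Igkv4-57 call (log2 fold change 4.32, limma adjusted p = 0.0166) was lost in 3 of 14 settings, without MBC 1, without the filter on low values and within the more frequent title prefix (limma adjusted p of 0.0696, 0.0879 and 0.080). Igkv10-96, Igkv6-15 and Igkv12-44 completed the 12, with usage from 0.198 to 5.48% over the 7 libraries and log2 fold changes of 5.88, 6.26 and 6.70.

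Few genes had usage that did not overlap between the MBC and PC libraries. Of 23 genes with a mean usage of 1% or more, which together held 65.9 to 88.8% of the Igkv total, 1 had a higher share in every PC library than in every MBC library, and none had a lower share. Over the 119 genes above 0 in any library, 8 had a higher share in every PC library, of which 4 were at 0 in all MBC libraries, and 1 had a lower share. Of the 4, Igkv6-29, Igkv3-11 and Igkv2-116 averaged 0.0160, 0.00476 and 0.0223% in PCs. In MBC libraries 3 reads of these genes would be up to 0.046, 0.043 and 0.050%. Their values of 0 in MBCs therefore do not establish a lower share. The numbers expected by chance were not computed. Igkv12-89 and Igkv14-126 were among the 8, and the lower gene was Igkv12-98, at 0.722, 2.85 and 0.849% in MBCs and 0.280, 0.20, 0.631 and 0.676% in PCs. The gene above 1% was Igkv7-33, at 0, 0 and 0.0157% in MBCs and 2.22, 1.87, 0.494 and 2.52% in PCs. Of the 20 families, the single-gene family Igkv7 was the only one whose groups did not overlap in these shares. Igkv4, the largest family with 33 genes, held 4.65, 12.8 and 11.1% in MBCs and 3.13, 10.9, 6.93 and 10.3% in PCs. Igkv12 varied least in PCs relative to its mean, at 6.27 to 7.08%, and was at 3.11, 6.29 and 5.37% in MBCs. Its make-up was not steady, with Igkv12-89 at 4.23% of usage in PC 1 and 0.472 to 0.759% in the other PC libraries. Igkv5 and Igkv9 followed their dominant members, with 61.4% of MBC 1 and 59.3% of PC 1 in Igkv5 and 38.0% of MBC 2 in Igkv9.

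The titles of the libraries carry codes, and 3 of 4 codes occur in both groups, in MBC 1 and PC 1, in MBC 2 and PC 3, and in MBC 3 and PC 4. What a code stands for is not given in the labels. The leading genes followed these codes in part. The libraries led most strongly by Igkv5-39, MBC 1 and PC 1, shared a code. Igkv9-120, the leader of MBC 2, had its highest PC usage in PC 3 of the same code, at 3.80% against 1.13 to 1.56% in the other PC libraries, although PC 3 itself was led by Igkv5-39.

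The overlap of usage, the sum over genes of the smaller of the shares in the libraries compared, was 78.7% for MBC 1 and PC 1, beside 35.0 to 44.0% for MBC 1 with the other PC libraries. It was 40.8% for MBC 2 and PC 3, which lay within the 23.4 to 42.9% of MBC 2 with the other PC libraries. MBC 3 overlapped by 73.7% with PC 4, but also by 74.0% with PC 2 and 69.9% with PC 3. The mean over the 3 pairs that shared a code was 64.4% and over the 9 others 44.6%, a difference of 19.9 percentage points. This difference rested on the dominant genes. Without Igkv5-39, its close relative Igkv5-43 and Igkv9-120, the means were 58.0 and 58.9%, a difference of -0.844. It was also 9.96 without MBC 1, 8.09 without PC 1 and 35.2 without PC 3. The pairs share libraries, so no test was run.

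MBC 1 and PC 1 were not alike in every gene. Igkv12-89 and Igkv7-33, at 4.23 and 2.22% of PC 1, were both listed at 0 in MBC 1, where 3 reads would be 0.045%. Igkv17-127 was at 5.87% in MBC 1 and 0.369% in PC 1. With the dominant genes removed as above, the overlap of MBC 1 and PC 1 was 49.2%, which was below its overlap with PC 2, PC 3 and PC 4 (55.7 to 62.4%). PC libraries overlapped by 38.4 to 78.9% with each other and by 65.4 to 79.5% without the dominant genes. MBC libraries overlapped by 24.1 to 43.8%, and by 48.5 to 59.1% without them. The estimated reads of the MBC libraries were also far fewer, and the part of depth in these lower overlaps was not tested.

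**Figure D4:**
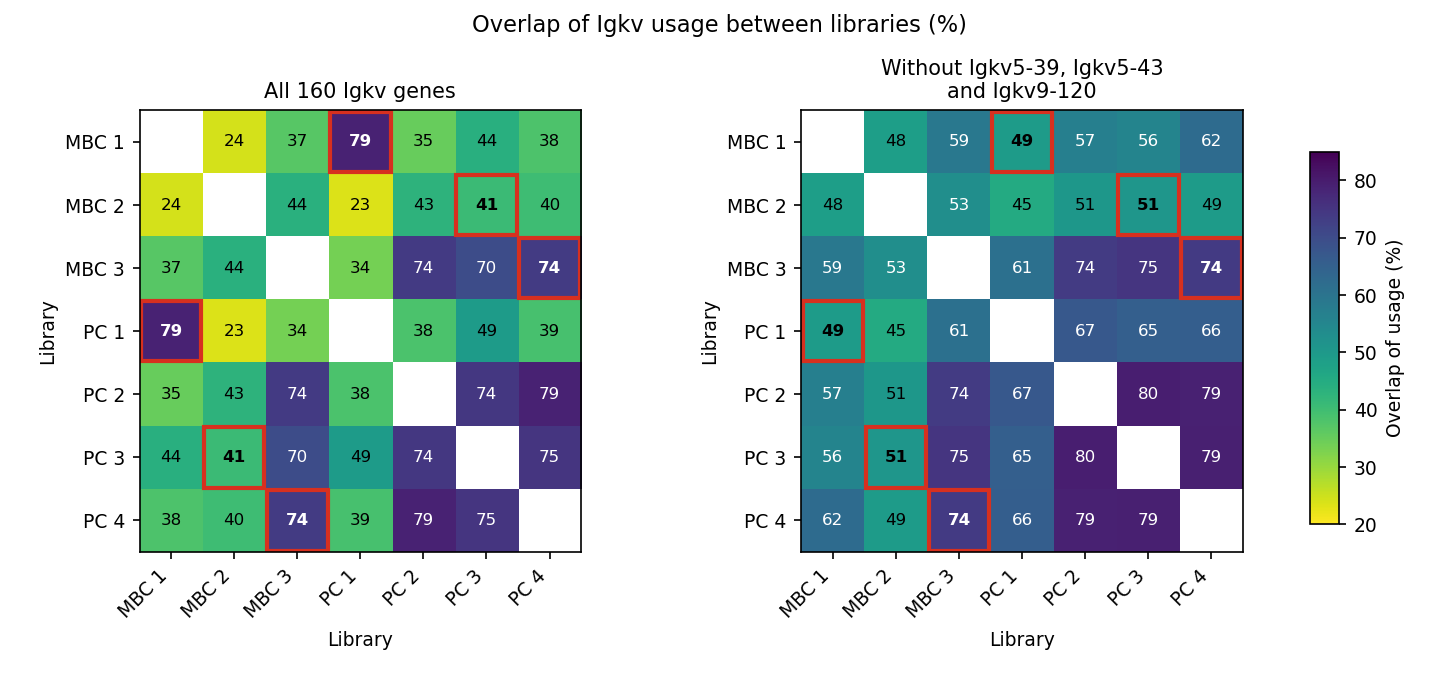
Overlap of Igkv usage (percentage, color scale) for every pair of libraries, with all 160 genes at left and without Igkv5-39, Igkv5-43 and Igkv9-120 at right, and with red frames around MBC and PC libraries that share a title code. The MBC 1 and PC 1 pair falls from 78.7% to 49.2%, while MBC 3 and PC 4 stay at 73.7% and 74.0%.

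Usage was spread unevenly along the locus. With the genes ordered from the far end and divided into parts of 53, 53 and 54 genes, the far part held 22.2, 71.9 and 54.4% of usage in MBCs and 20.2, 53.1, 52.1 and 50.6% in PCs. The part next to the joining segments, which contains Igkv5-39, held 72.9 and 71.2% in MBC 1 and PC 1 and 15.1 to 38.8% elsewhere. These contrasts followed the dominant genes. Without Igkv5-39, Igkv5-43 and Igkv9-120, the far part held 47.2 to 60.2%, the middle part 11.3 to 22.0% and the near part 22.0 to 33.7% in the 7 libraries. The middle part was the least used in each library although it holds 28 functional genes, nearly as many as the 29 of the far part. Genes in the orientation of Igkc, which join by deletion, held 47.5 to 60.8% of usage without the dominant genes, and those in the opposite orientation, which join by inversion, held the rest.

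**Figure D5:**
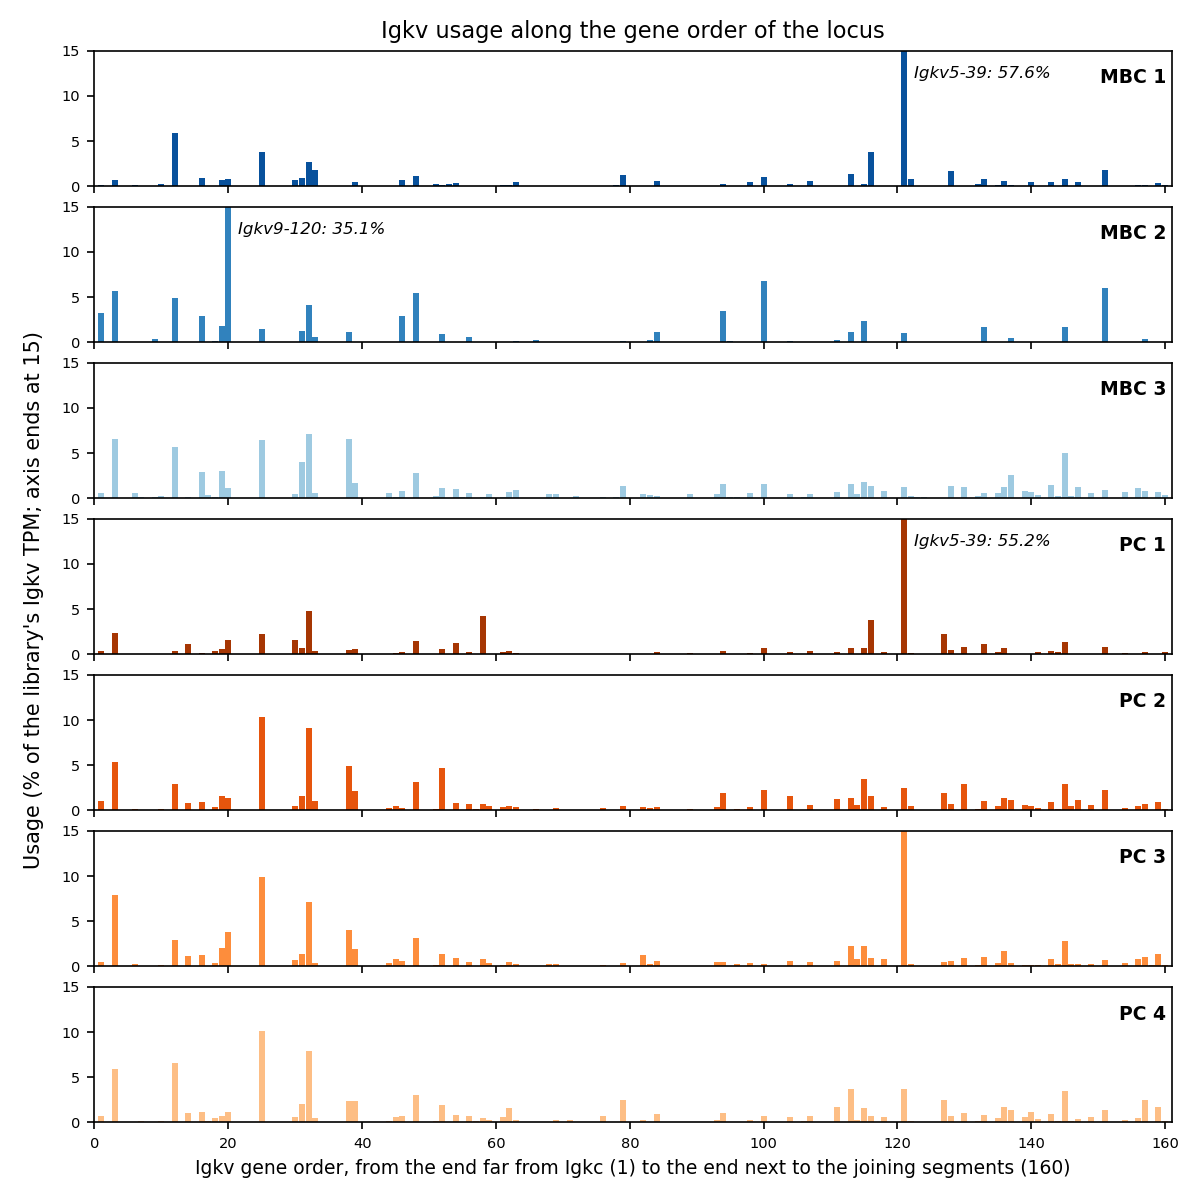
Usage (percentage of each library's Igkv TPM, vertical axis ending at 15) of the 160 Igkv genes in their chromosomal order, from 1 at the end far from Igkc to 160 next to the joining segments, with 1 panel per library. The bars of Igkv5-39 in MBC 1 (57.6%) and PC 1 (55.2%) and of Igkv9-120 in MBC 2 (35.1%) run past the axis, and the middle of the order is low in all 7 panels.

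Igkv genes resemble each other, so the share of a single gene also depends on how reads were assigned among relatives. Over a window of 270 bases, functional genes had a median identity of 94.1% with their nearest relative (72.8 to 98.9%), and the 18 genes at 97% or more held 7.52 to 18.9% of usage. Igkv5-39 was compared with Igkv5-43 (chr6:69823355-69823943, minus strand) because both had their highest usage in MBC 1 and PC 1. The nearest relative of each was Igkv5-45, with 92.2% identity to Igkv5-39 and 98.9% to Igkv5-43, and it held 0, 0 and 0.484% of MBC 1 to 3 and 0.0176, 0.535, 0.844 and 0.265% of PC 1 to 4. The variable exon ends of Igkv5-39 and Igkv5-43 differ at 25 of 287 bases (91.3% identity), shown in capitals, and the longest shared run is 49 bases.
Igkv5-39: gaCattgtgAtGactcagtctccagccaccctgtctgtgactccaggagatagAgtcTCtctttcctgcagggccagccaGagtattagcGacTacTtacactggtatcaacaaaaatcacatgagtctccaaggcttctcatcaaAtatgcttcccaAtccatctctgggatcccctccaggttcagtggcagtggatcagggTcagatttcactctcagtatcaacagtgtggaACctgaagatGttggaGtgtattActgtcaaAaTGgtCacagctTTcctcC
Igkv5-43: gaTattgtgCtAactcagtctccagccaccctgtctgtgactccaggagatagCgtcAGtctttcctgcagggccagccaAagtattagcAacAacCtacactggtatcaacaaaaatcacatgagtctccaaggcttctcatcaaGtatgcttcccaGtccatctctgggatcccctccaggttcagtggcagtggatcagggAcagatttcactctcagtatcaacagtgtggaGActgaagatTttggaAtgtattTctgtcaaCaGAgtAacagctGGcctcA

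Igkv5-43 held 3.74, 0.0739 and 1.35% of MBC 1 to 3 and 3.83, 1.57, 0.948 and 0.703% of PC 1 to 4. For every 100 TPM of Igkv5-39 there were 6.49 TPM of Igkv5-43 in MBC 1, 6.93 in PC 1 and 6.34 in PC 3, the 3 libraries that Igkv5-39 led. The ratio was 7.40 in MBC 2, where Igkv5-43 was scarce, and 111, 64.4 and 19.2 in MBC 3, PC 2 and PC 4. Whether Igkv5-43 received reads of Igkv5-39 was not tested. Annotated length also bears on these shares. Igkv5-39 has a second, shorter annotated transcript, and TPM divides by length. Expressed as estimated reads, the share of Igkv5-39 was 53.5% in MBC 1 and 51.7% in PC 1 with the longest transcript of each gene, and 40.6 and 40.5% with the shortest. It led both libraries either way, whereas PC 3 was led by Igkv1-117 at 13.1% with the shortest transcripts. Igkv9-120 led MBC 2 at 31.7 or 32.9%.

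Other genes of the kappa system were examined from lists. Of the constant and lambda light chain genes, 7 of 7 tested rose in PCs, with a median log2 fold change of 5.46. Lambda variable gene Iglv1 was at 168, 403 and 87.5 scaled TPM in MBCs and 9088 to 14197 in PCs. Of 9 factors that bind kappa promoters and enhancers, 2 were called higher and 2 lower, beside 6.41 and 2.14% of all genes tested. At an unadjusted p under 0.05, 5 of the 9 were lower, and the share of all genes at that limit was not computed. Irf4, a regulator of kappa enhancers and of PC identity, was at 29.9, 12.0 and 11.4 in MBCs and 158 to 222 in PCs (log2 fold change 3.45, limma adjusted p = 5.4e-04). Pou2af1, the coactivator at octamer motifs, rose from 507, 529 and 573 to between 987 and 1383 (log2 fold change 1.16, limma adjusted p = 0.0394). Pou2f2, an octamer-binding factor, and Irf8 fell, with log2 fold changes of -1.65 and -1.91 (limma adjusted p = 0.0413 and 0.0145). Of the surrogate light chain and rearrangement genes, 2 of 7 could be tested and neither was called or had an unadjusted p under 0.05. Rag2, a subunit of the recombinase that joins the segments, was listed at 0 in every MBC library and at 7.19, 0.580, 0.123 and 1.32 in PCs.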

How the data were processed

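Libraries of 3 MBC and 4 PC samples had been made with Nugen cDNA kits and run on an Illumina HiSeq. The authors deposited TPM values per Ensembl gene. The submitters' processing notes name STAR 2.5.2a, RSEM 1.3.0, DESeq2 1.18.1 and GRCm38, without their roles. The annotation release is not given in the sources used here. Symbols, biotypes, coordinates and transcripts were taken from GENCODE M21 (GRCm38), which matched 48349 of 48795 IDs. TPM divides by the sum of a library, so a family that fills a library lowers every other gene. For tests, TPM was rescaled with a median-of-ratios factor per library, taken from the 9305 genes that no library listed at 0 (scaled TPM).

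Genes at 1 TPM or more in at least 3 libraries were fitted with limma 3.58.1 (trend, R 4.3.3) on log2(scaled TPM + 1), a scale that understates changes of low genes, with Benjamini-Hochberg adjustment over all 11573 genes. Usage is a share of transcripts, not of cells, and was computed from TPM as deposited with Python 3.11.15. The worth of 1 read was fitted to the low values of genes with a single transcript, of which 67.1 to 78.4% came within 0.15 of a whole read, where 30% would by coincidence.

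Groups and replicate numbers came from the sample descriptions. Libraries of the same number gave correlations of deviations of 0.11, -0.04 and -0.08 over tested genes. Libraries sharing a title code gave 0.11, -0.00 and 0.22, and pairs of other codes -0.18 to 0.15. MBC 1 and MBC 3 each had their highest value with the PC library of the same code. No block was used in the main fit, and whether the libraries are paired was not tested. Over Igkv usage alone, libraries sharing a code gave 0.94, 0.60 and 0.81, and other pairs -0.91 to 0.83. Named were the 12 genes of highest mean usage, the 3 leading genes of each library, the 5 highest and 5 lowest log2 fold changes, and genes of at least 1% mean usage whose usage did not overlap between groups. Igkv5-43, Igkv5-45, Igkv12-98, Igkv1-35, Igkv2-93-1, Igkv3-12-1, Igkv3-11 and Igkv4-77 were named after their values were seen. A list of hypermutation and repair genes is not reported here. The members and lists were chosen with earlier results of these data known. Alternatives covered scaling, pseudocount, filter, blocks, single libraries left out, pseudogenes, families and transcript length.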

Additional observations from a re-analysis of the deposited data

Results flagged for a closer look

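In groups of 4 libraries, the highest or lowest library was compared with the others by its gap relative to the whole range, against Dixon's critical value at 95%. This was possible for the PC libraries alone, because groups of 3 are too small. Of 47 PC measures, 8 passed it. Chance passes about 1 in 20, and several of the 8 describe the same library or gene. PC 1 stood apart in 5 of them. Its leading gene held 55.2% of usage, where the leaders of the other PC libraries held 10.1 to 14.9%. Igkv1-117 was at 2.21% in PC 1 against 9.89 to 10.4%, and Igkv10-96 at 1.52% against 3.06 to 3.18%. Both are shares of a total that Igkv5-39 fills in PC 1. Without Igkv5-39, Igkv5-43 and Igkv9-120, Igkv10-96 was at 3.86% in PC 1 and 3.24 to 3.94% in the others, and Igkv1-117 at 5.62% against 10.7 to 12.3%. Igkv12-89 was at 4.23% of usage in PC 1 against 0.472 to 0.759%, and at 8683 scaled TPM against 883 to 1519.7. In PC 2, Igkv8-30 was at 2.88% of usage against 0.769 to 1.08%, and at 5886 scaled TPM against 1471 to 2012. In PC 3, Igkv9-120 was at 3.80% of usage against 1.13 to 1.56%. The cause of these differences was not tested.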

How the results depend on the processing

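The count of 86 Igkv genes higher in PCs was 83 with TPM as deposited, 84 with immunoglobulin genes removed from the total, 81 with a pseudocount of 0.1, 73 of 119 without a filter and 78 to 88 with 1 library left out. With the replicate block it was 82, with the title code as a block 83. The count of lower genes was 0 in each of these. Without a filter, 1 member was lower at an unadjusted p under 0.05. TPM as deposited moved the median log2 fold change of all genes from 0.14 to -0.91 and that of the Igkv genes from 6.18 to 5.15. For 22 named genes and 14 settings, 290 of 308 values kept their direction and side of the threshold and 18 lost the call, all in Igkv9-120, Igkv5-39, Igkv4-57 and Igkv17-127. None reversed.

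The difference in the Igkv share of TPM was 12.7 to 13.0 with 1 library left out, and 16.3 when mitochondrial genome and ribosomal RNA genes were taken out of the total. That of the effective number ranged from 2.23 to 21.7, that of the leading share from -23.7 to 1.57, and that of the overlap by title code from 8.09 to 35.2. The leading share reversed without MBC 1 (1.57). The overlap difference reversed without Igkv5-39, Igkv5-43 and Igkv9-120 (-0.844), an alternative chosen after seeing the data. Usage of single genes and of the Igkv1 family without these 3 was also chosen after seeing the data. So were the alternatives by estimated reads, by title prefix and without leading genes. With families in place of genes, the effective number difference was 1.84 and the leading share difference -5.92. Within the more frequent title prefix the leading share difference was -19.5. The cause was not tested. Depth limits rare genes in MBC libraries, where 3 reads of a typical Igkv gene were 1.83 to 3.18 TPM.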
